A study of Mus musculus with 9 samples.

Results

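Phase II conjugating enzymes attach a polar group to drugs, hormones, bile pigments and dietary compounds, which makes them easier to excrete. The genes described here belong to 3 such families of the liver: the UDP-glucuronosyltransferases (UGT), the cytosolic sulfotransferases (SULT) and the cytosolic glutathione S-transferases (GST). They were taken by symbol alone, as symbols that begin with Ugt1 to Ugt3, with Sult1 to Sult6, or with Gst followed by a class letter (a, k, m, o, p, t or z) and a digit. This gave 64 of the 27179 genes in the table, of which 20 were UGT, 21 SULT and 23 GST. The rule uses no measured value, although the 3 families were picked with earlier results of these data known.

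Polyadenylated RNA from the liver of 9 aged mice was sequenced in bulk. All were C57BL/6J with a genotype given as WT, ate normal chow under a regular light and dark cycle, and were injected behind the eye at 17 months of age with an AAV8 vector. In every mouse the vector carried the nuclease saCas9, expressed from the hepatocyte promoter TBG, and a guide RNA expressed from the U6 promoter. The guide was directed at Rosa26, a locus often cut as a neutral control, in 4 mice (sgRosa26) and at Ccnd1, the gene of cyclin D1, in 5 mice (sgCcnd1). A piece of the m-lobe was taken 3 weeks later and frozen. There was no uninjected group, and the labels give neither sex nor time of day. In the column order of the table, the control libraries are called A to D and the sgCcnd1 libraries E to I. A column could be matched to a group but not to a replicate number.

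Between 10.8 M and 20.2 M reads per library (M, mega) fell on genes. Ccnd1 checked the labels: it stood at 684, 800, 625 and 867 normalized counts in A to D and at 428, 347, 370, 339 and 325 in E to I, so the groups did not overlap. The difference was -1.03 on the log2 scale (SE 0.11), with an adjusted p of 0.0116 by limma, and Ccnd1 fell to 48.6% of the control mean. Leaving out 1 library left a log2 difference between -1.11 and -0.96, but the adjusted p rose above 0.05, to between 0.0559 and 0.0852, without B, D, F, H or I. Library H stood apart in 1 respect: its 4 Y-linked marker genes summed to 2.00 normalized counts, while the 8 remaining libraries had 1619 to 2834. Results are therefore also given without H where it changed a call. The 9 hepatocyte markers in the table summed to between 1718500 and 2036460 normalized counts in sgRosa26 and between 1609070 and 2088750 in sgCcnd1. Because whole tissue was sequenced, fewer cells of a type and less RNA per cell cannot be told apart.

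As background, UGTs sit in the membrane of the endoplasmic reticulum and transfer glucuronic acid from UDP-glucuronate. SULTs work in the cytosol and transfer sulfate from PAPS, the activated sulfate donor. GSTs join glutathione to reactive electrophiles, and their genes are classic targets of NRF2, the transcription factor encoded by Nfe2l2, and of the xenobiotic receptors CAR, PXR and AhR. Mouse liver expresses several of these genes at different levels in males and females.

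Of the 64 members, 42 reached a mean of 10 normalized counts over the 9 libraries and were tested: 15 UGT, 7 SULT and 20 GST genes. Another 13 had reads below that mean, and 9 had no read in any library (Ugt2a1, Ugt2a2, Sult1c1, Sult2a3, Sult2a4, Sult2a5, Sult2a6, Sult3a2 and Gstt4). A count of 0 allows up to 2.29 to 4.26 normalized counts per library, the worth of 3 reads, which covers counting error only. No member passed the adjusted threshold of 0.05 in limma or in edgeR, in either direction. Over all 12993 genes tested, limma called 0.0% higher and 0.0077% lower. At an unadjusted limma p under 0.05, 7 members were higher in sgCcnd1, all of them UGT genes, and 1 was lower, Sult5a1, while 5.22% of all genes tested were higher and 5.74% lower at that level. The unadjusted edgeR counts were 6 higher and 2 lower, against 4.42% and 6.15% of all genes. DESeq2 on the recovered reads called 2 members higher, Ugt2a3 and Ugt3a1, and none lower, against 0.267% and 0.549% of the genes to which it gave an adjusted p.

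**Figure D1:**
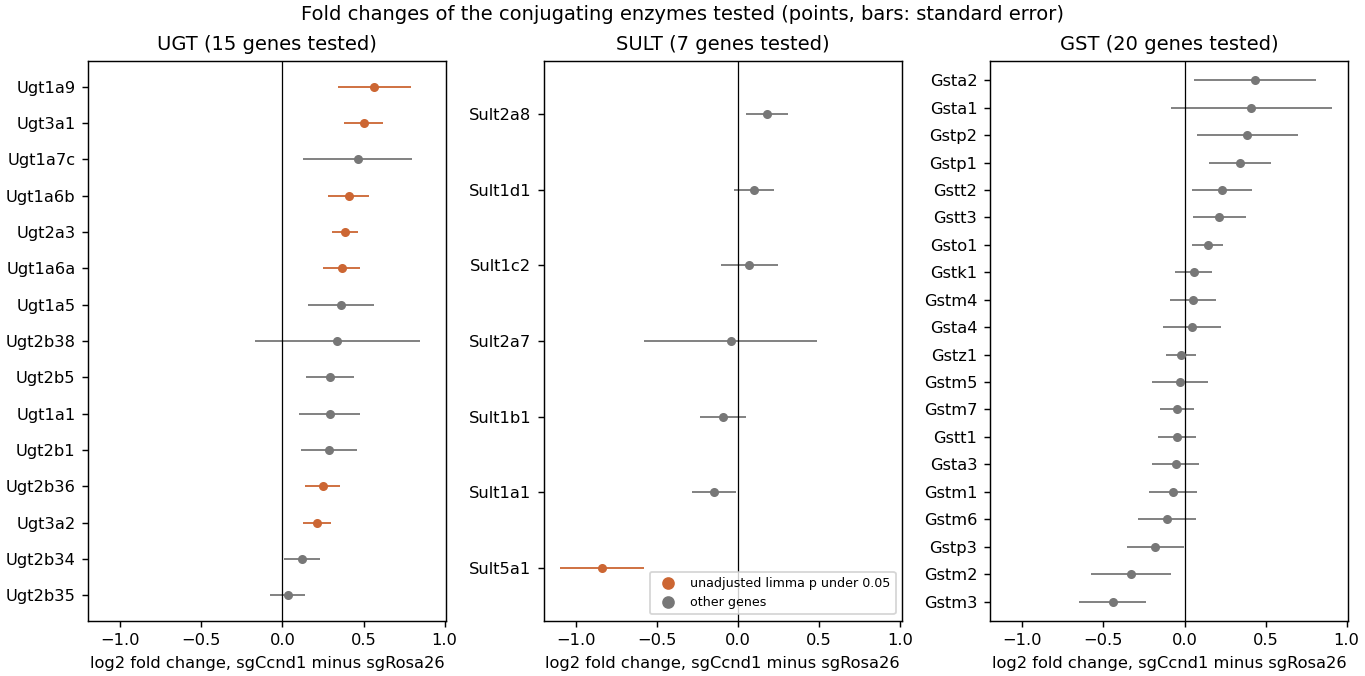
Log2 fold change (sgCcnd1 minus sgRosa26, on the log2(normalized count + 1) scale) of the 15 UGT, 7 SULT and 20 GST genes tested, with bars of 1 standard error and the unadjusted limma p under 0.05 in colour. All 15 UGT points lie to the right of 0, between 0.03 and 0.57, and the GST points lie on both sides.

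The UGT genes were the family with the most members above their controls. All 15 tested had a log2 fold change above 0, with a median of 0.34 and a range of 0.03 to 0.57, beside 52.9% of all genes tested above 0 and a median over all genes of 0.01. The 2157 genes whose mean reached 1000 normalized counts had a median of 0.07. The 15 genes are not 15 separate measurements, since the 6 UGT1A genes tested share their last exons (50.3% to 60.6% of their exon bases lie in another UGT1A gene). Without library A the median was 0.22, with 13 of 14 tested genes above 0. Without H it was 0.29, with 14 of 15 above 0, and without I 0.28, with 13 of 14.

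Ugt2a3, a UGT of liver and gut that lies on chromosome 5 (GRCm38.p6, chr5:87324972-87337195, minus strand), had the smallest p of all members. It stood at 2979, 3001, 3099 and 3317 normalized counts in A to D and at 3844, 3811, 3849, 4539 and 4256 in E to I. Every sgCcnd1 library lay above every control, as for 1.92% of all genes tested. The means were 3099 ± 154 (SD, n = 4) and 4060 ± 325 (SD, n = 5), a log2 fold change of 0.39 (SE 0.08). Its unadjusted limma p was 0.000434 and its limma adjusted p 0.225, and the exact two-sided permutation p was 0.00794, the smallest that 4 against 5 libraries allow. DESeq2 called it higher, with an adjusted p of 0.00244, or 0.0175 without library H. With 1 library left out, the limma log2 fold change lay between 0.35 and 0.42 and the adjusted p between 0.128 and 0.521.

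Ugt3a1 and Ugt3a2 are neighbours on chromosome 15 (chr15:9279822-9315038 and chr15:9335551-9370955, plus strand) and belong to the UGT3A subfamily, whose human members use sugar donors other than UDP-glucuronate. Ugt3a1 stood at 792, 715, 933 and 867 normalized counts in A to D and at 993, 1023, 1390, 1356 and 1124 in E to I. Its groups did not overlap either. The log2 fold change was 0.50 (SE 0.12), with a limma adjusted p of 0.250 and an exact permutation p of 0.0159. DESeq2 gave an adjusted p of 0.0295 with all libraries, so that it was called higher. Without H the DESeq2 adjusted p was 0.151 and the log2 fold change 0.45, against 0.50 with all libraries, and DESeq2 was not run without any other library. Ugt3a2 was the more abundant per kilobase of exon, at 1631 against 383 normalized counts. Its values were 4445, 4276, 5027 and 4853 in A to D and 4903, 5168, 5906, 5503 and 5453 in E to I. Here 4 of 5 sgCcnd1 libraries lay above all controls and E lay inside their range, and the log2 fold change was 0.21 (SE 0.09, limma adjusted p 0.389). It was 0.13 under quantile normalization.

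The UGT1A genes are read from a row of alternative first exons on chromosome 1 that splice to the same last exons. Their best known product, UGT1A1, conjugates bilirubin. Because featureCounts, which the submitters' processing notes name, can leave out or share reads in overlapping exons, the split between UGT1A genes is uncertain: 95.7% of the 75-base windows of Ugt1a6a and 74.8% of those of Ugt1a6b occur in another gene. Ugt1a6b (chr1:88103257-88218998) stood at 685, 566, 878 and 611 normalized counts in A to D and at 968, 772, 830, 952 and 978 in E to I. Library C was the highest control and exceeded F and G. The log2 fold change was 0.41 (SE 0.13), with a limma adjusted p of 0.306.

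Ugt1a6a (chr1:88134809-88220002), which encodes a near-identical enzyme for small phenols, stood at 557, 480, 703 and 551 in A to D and at 755, 663, 661, 738 and 852 in E to I. The pattern was the same, with C above F and G, and the log2 fold change was 0.36 (SE 0.12, limma adjusted p 0.308). For Ugt1a9 (chr1:88070779-88220002) the values were 253, 450, 326 and 442 in A to D and 426, 375, 555, 566 and 833 in E to I. Library I was the highest and E and F lay within the control range. Its log2 fold change of 0.57 was the highest of the members tested, with an SE of 0.22 and a limma adjusted p of 0.384.

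Ugt1a1 itself had a log2 fold change of 0.29 (SE 0.19, limma adjusted p 0.589). It stood at 5661, 3061, 3668 and 2915 normalized counts in A to D and at 3735, 3764, 5427, 4522 and 5416 in E to I. The highest value of all 9 was control library A, and no sgCcnd1 library lay above all controls. With 1 library left out the log2 fold change lay between 0.18 (without D) and 0.50 (without A). The 2 remaining UGT1A genes tested, Ugt1a5 and Ugt1a7c, had log2 fold changes of 0.36 and 0.47, the latter at 5.26 to 17.0 normalized counts per library. Without G the former was 0.21, and without B the latter was 0.30.

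The UGT2B genes form a cluster on chromosome 5 and conjugate steroids and other lipophilic compounds. Ugt2b36 (chr5:87065927-87092555, minus strand) had the highest mean of all UGT genes, with 7574, 8367, 8768 and 10588 normalized counts in A to D and 9004, 10161, 10578, 10886 and 11509 in E to I. Control D exceeded E, F and G, so the groups overlapped, and the log2 fold change was 0.25 (SE 0.11, limma adjusted p 0.446). Under quantile normalization it was 0.15. Ugt2b5 (chr5:87124946-87140340, minus strand) followed in mean level, at 5877, 9208, 8483 and 10726 in A to D and at 9515, 10078, 9788, 10746 and 11314 in E to I. Its log2 fold change of 0.29 (SE 0.15, limma adjusted p 0.490) was 0.12 without library A, whose value was the lowest of the 9. The 4 others tested, Ugt2b1, Ugt2b34, Ugt2b35 and Ugt2b38, ranged from 0.03 to 0.34, none with an unadjusted p under 0.05. The direction of a pair of them rested on single libraries, since Ugt2b38 turned to -0.044 without A, and Ugt2b35 to -0.0099 without H and -0.043 without I.

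**Figure D2:**
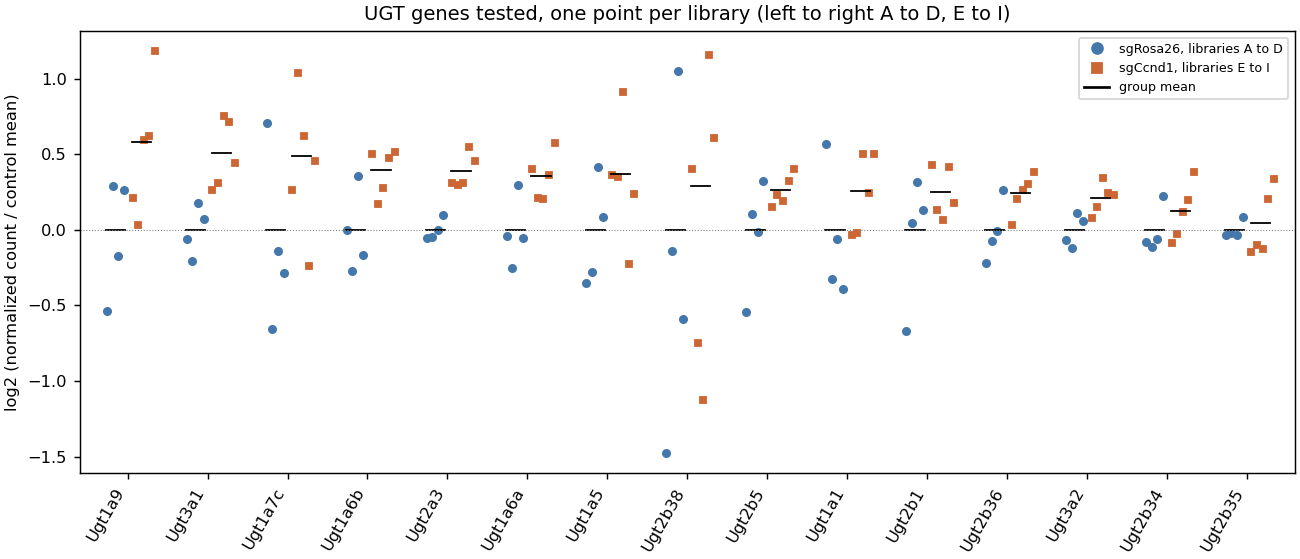
Each point is 1 library of 1 UGT gene, as log2 of the normalized count over the control mean, with A to D (sgRosa26, circles) and E to I (sgCcnd1, squares) from left to right and a black line at each group mean. Only Ugt3a1 and Ugt2a3 show no overlap between circles and squares, while Ugt2b38, at 18.4 to 114 normalized counts per library, has the widest scatter.

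Summed over the 20 UGT genes, the level was 42704, 46194, 49890 and 53406 normalized counts in A to D and 52254, 52846, 57023, 59642 and 62177 in E to I. G, H and I lay above all controls, and E and F lay between C and D. The means were 48048 ± 4622 (SD, n = 4) and 56789 ± 4282 (SD, n = 5), so sgCcnd1 stood at 118% of the control mean. As a share of all normalized counts the family took 0.316% ± 0.023 and 0.361% ± 0.033. By subfamily the sgCcnd1 mean was 125% of the control mean for UGT1A, 131% for UGT2A, 115% for UGT2B and 120% for UGT3A. The UGT2A value is that of Ugt2a3 alone, since Ugt2a1 and Ugt2a2 had no read.

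The bases upstream of these genes were read because the UGT members lay in 1 direction. The 250 bases before each start of the promoter table (RefSeq, GRCm38.p6), which held 56 of the 64 members and 10140 of the genes tested, were searched for 4 short motifs on both strands. The windows of Ugt2a3 and Ugt3a1 are printed because their groups did not overlap, and that of Ugt2b1 because it holds the D-box, the site of clock output factors such as DBP, as TTATGTAA or its reverse complement TTACATAA. They run 5′ to 3′ on the gene's strand and end at the base before the annotated gene start (243 bases for Ugt3a1), with the D-box in capitals.
Ugt2a3, chr5:87337196-87337445, minus strand: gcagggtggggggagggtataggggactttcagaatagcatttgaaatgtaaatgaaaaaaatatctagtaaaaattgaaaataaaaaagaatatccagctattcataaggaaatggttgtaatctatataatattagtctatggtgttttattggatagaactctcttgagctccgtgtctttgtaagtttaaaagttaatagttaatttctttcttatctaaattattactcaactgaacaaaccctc
Ugt3a1, chr15:9279579-9279821, plus strand: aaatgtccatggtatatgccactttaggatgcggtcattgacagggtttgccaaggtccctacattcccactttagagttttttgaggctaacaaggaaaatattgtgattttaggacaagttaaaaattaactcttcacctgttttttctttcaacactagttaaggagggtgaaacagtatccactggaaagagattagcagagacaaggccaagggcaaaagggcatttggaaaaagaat
Ugt2b1, chr5:86926504-86926753, minus strand: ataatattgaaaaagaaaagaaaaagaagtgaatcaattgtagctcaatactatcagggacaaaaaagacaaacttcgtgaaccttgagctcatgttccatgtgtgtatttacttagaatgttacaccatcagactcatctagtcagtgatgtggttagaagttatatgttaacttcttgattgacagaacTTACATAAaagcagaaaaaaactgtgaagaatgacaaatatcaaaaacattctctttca

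Neither the Ugt2a3 nor the Ugt3a1 window held any of the 4 motifs. The antioxidant response element was searched on both strands as TGACNNNGC, and a gene with several windows counted once if any of them matched. Among tested genes it was found for 0 of 13 UGT, 0 of 6 SULT and 3 of 18 GST genes. These 3 were Gsta3, Gstm5 and Gstm7, and the share of all tested genes was 13.9%. The core of the xenobiotic response element, GCGTG on either strand, was found for 1 UGT, 2 SULT and 5 GST genes, against 48.7% of all tested genes. The D-box was found in 1 member, Ugt2b1, and in 0.621% of tested genes, with 51 bases between it and the end of the window. Ugt2b1 stood at 3429, 5640, 6808 and 5981 normalized counts in A to D and at 7360, 5973, 5729, 7280 and 6168 in E to I. E and H lay above all controls and A was the lowest of the 9, and the log2 fold change of 0.29 (SE 0.17, limma adjusted p 0.555) was 0.078 without A. The E-box CACGTG was in none of the members' windows and was found for 9.95% of all tested genes. These are letter matches in windows of 250 bases, of which some genes have several, and describe no binding.

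Among sulfotransferases 3 of 7 genes tested lay above 0 and 4 below, beside 47.1% of all genes tested below 0, and the median log2 fold change was -0.05. That split turned to 4 above and 3 below, with a median of 0.03 in both, under edgeR and DESeq2. The median gene was Sult2a7, at -0.05 in limma and 0.26 in DESeq2. The most abundant was Sult2a8 (chr7:14410686-14446780, minus strand), a liver sulfotransferase of bile acids, at 7230, 9531, 11841 and 10979 normalized counts in A to D and at 11268, 11009, 10188, 12103 and 10569 in E to I. Control A was the lowest of the 9 and the other values interleaved, and the log2 fold change was 0.18 (SE 0.13, limma adjusted p 0.643). It was 0.036 without A and 0.080 under quantile normalization. Sult1a1 (chr7:126672865-126690443, minus strand), which sulfates small phenols, stood at 4150, 5667, 3833 and 5307 in A to D and at 3844, 4846, 4700, 4351 and 3518 in E to I. Its groups overlapped almost wholly, with a log2 fold change of -0.15 (SE 0.13, limma adjusted p 0.706) that was -0.056 without B and -0.25 under quantile normalization.

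Sult5a1 (chr8:123142843-123158914, minus strand), a sulfotransferase whose substrates are little known, had the largest difference of the 42 members tested, in either direction. It stood at 92.2, 181, 201 and 186 normalized counts in A to D and at 116, 92.2, 95.0, 101 and 51.1 in E to I. Control A lay among the sgCcnd1 libraries, and the other 3 controls lay above all of them. The log2 fold change was -0.84 (SE 0.26), with an unadjusted limma p of 0.00689, a limma adjusted p of 0.305, a DESeq2 adjusted p of 0.0549 and an exact permutation p of 0.0635. With 1 library left out, the log2 fold change lay between -1.10 and -0.65. Sult1b1, Sult1c2, Sult1d1 and Sult2a7 had log2 fold changes between -0.09 and 0.10. With 1 library left out Sult2a7 lay between -0.35 (without G) and 0.44 (without E), Sult1b1 between -0.26 (without A) and 0.0040 (without C), and Sult1c2 between -0.094 (without D) and 0.19 (without A), so none of the 3 kept its direction. Sult1d1 stayed above 0, between 0.013 and 0.17. Sult2a7 varied most, from 19.8 normalized counts in E to 188 in G.

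Of the 21 SULT genes 14 were not tested, and these include the sulfotransferases known to be higher in female mouse liver. Sult2a1, Sult2a2 and Sult3a1 had 1, 3 and 4 reads in all 9 libraries together, and Sult2a3 to Sult2a6 and Sult3a2 had none. Libraries B, F, H and I had no read of any of these 8 genes. In library H, with almost no Y-linked reads, 15 genes known to be higher in male liver summed to 154550 normalized counts. That lay within the range of the other libraries (78170 to 192611). For 15 genes known to be higher in female liver, 8 of them with a mean under 10, the sum in H was 2012. That too lay within the range of the others (812 to 6864). Sult1e1, which sulfates estrogens, had 9 reads in all. Summed over all SULT genes the level was 17015 ± 2302 normalized counts in sgRosa26 (SD, n = 4) and 17702 ± 888 in sgCcnd1 (SD, n = 5), and no sgCcnd1 library lay outside the control range of 13697 to 18879.

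**Figure D3:**
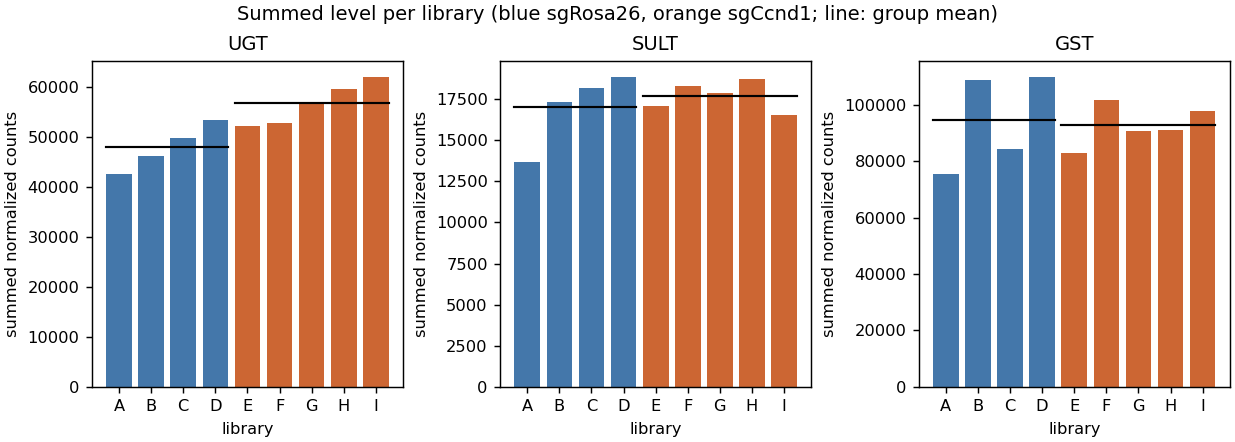
Summed normalized counts of the UGT, SULT and GST genes in each library, with blue bars for sgRosa26 (A to D), orange bars for sgCcnd1 (E to I) and a line at each group mean. UGT sums are above all controls in G, H and I, whereas the SULT and GST sums of sgCcnd1 lie inside the range of the controls.

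With all libraries the glutathione S-transferases were evenly split, with 10 of 20 genes tested above 0, 10 below and a median log2 fold change of 0.01. None had an unadjusted limma p under 0.05. The split was 15 above and 5 below without D, 13 and 7 without B, and 8 and 12 without A or without C. The most abundant, Gstm1 (chr3:108012250-108017973, minus strand), a mu class enzyme, stood at 24488, 34499, 26585 and 36417 normalized counts in A to D and at 23037, 31443, 28365, 28308 and 32908 in E to I. The 2 ranges overlapped over most of their span, and the log2 fold change of -0.07 (SE 0.15, limma adjusted p 0.894) turned to 0.020 without D and 0.0057 without E. Gsta3 (chr1:21240565-21265575, plus strand), the alpha class enzyme that detoxifies aflatoxin epoxide in mice, stood at 22220, 32975, 21827 and 32875 in A to D and at 23957, 28533, 26079, 24803 and 26412 in E to I. The sgCcnd1 values all lay between the low pair and the high pair of controls. Its log2 fold change of -0.06 (SE 0.14, limma adjusted p 0.919) turned to 0.042 without B and 0.040 without D.

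By class, 6 of 7 mu genes lay below 0, beside 47.1% of all genes tested, with a median of -0.07. Without B or without D 4 of 7 did, with medians of -0.0063 and -0.0090. Above 0 lay 3 of 4 alpha genes (1 of 4 without C), 2 of 3 pi genes and 2 of 3 theta genes. The lowest of all GST genes was Gstm3, at 922, 2221, 1080 and 1479 normalized counts in A to D and at 843, 1012, 1197, 956 and 967 in E to I. Controls B and D were the highest of the 9, and the 7 others lay between 843 and 1197. Its log2 fold change was -0.44 (SE 0.21), with an unadjusted p of 0.0530 and an adjusted p of 0.457 by limma and an unadjusted edgeR p of 0.0255. It was -0.20 without B, and 21.6% of its 75-base windows occur in another gene. At the other end lay Gsta2 and Gsta1, the latter at only 5.63 to 45.6 normalized counts per library. Their log2 fold changes were 0.43 and 0.41, with standard errors of 0.38 and 0.50. Without library C, the lowest of the 9 for both, they were 0.15 and -0.051, and without B 0.73 and 0.89, so that the direction of Gsta1 turned. For Gsta1, edgeR gave 0.0088 and DESeq2 0.067. The alpha pair shares sequence (86.3% of the windows of Gsta1 occur in another gene), as does the pi pair Gstp1 and Gstp2 (44.5% and 45.8%), so their split is uncertain. Gstp1, the most abundant pi gene, had a log2 fold change of 0.34 (SE 0.19, limma adjusted p 0.534), and 4 of 5 sgCcnd1 libraries lay above all controls. It was 0.13 without library A.

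Libraries B and D both lay above A and C in 16 of 20 GST genes, beside 1 of 7 SULT genes, 3 of 15 UGT genes and 24.0% of all genes tested (3115 of 12993). The same order of controls was found in both membrane-bound GST genes, 12 of 19 NRF2 targets outside the families, 7 of 14 other conjugating and hydrolysing enzymes, 5 of 11 glutathione genes and 5 of 13 targets of CAR and PXR. It was also found in 3 of 4 red cell markers, 3 of 5 genes of UDP-glucuronate supply and 3 of 7 genes known to be higher in female liver. Of the AhR targets 1 of 5 had it. Some of these lists share genes. Library A was the lowest control in 12 of the 20 GST genes, and in sgCcnd1 library E was the lowest in 13. The GST sum was 75359, 108957, 84440 and 110031 normalized counts in A to D and 82774, 101673, 90685, 91129 and 97806 in E to I, so the control pairs A with C and B with D differed by more than the groups did. These pairs were picked after the GST values were seen, which favours a gap between them. The sgCcnd1 mean was 98.0% of the control mean. The median coefficient of variation of the GST genes was 23.1% in sgRosa26 and 14.7% in sgCcnd1, beside 20.1% and 13.1% for UGT and 21.8% and 13.2% for SULT.

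**Figure D4:**
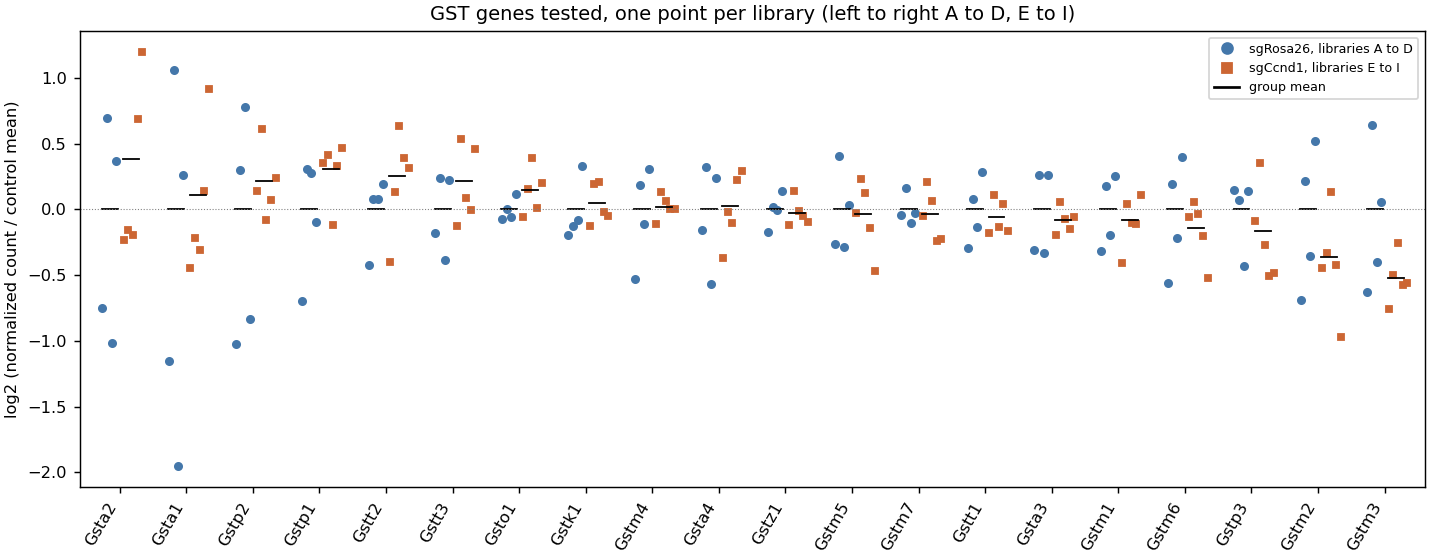
Each point is 1 library of 1 GST gene, as log2 of the normalized count over the control mean, with A to D (circles) and E to I (squares) from left to right and a black line at each group mean. In 16 of 20 genes the circles of B and D lie above those of A and C, and the squares scatter within or near the control range.

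Per kilobase of exon and over all 9 libraries, Gstm1 was the highest member at 20069 normalized counts. Gsta3 (6131), Gstp1 (5885), Ugt2b5 (5127) and Ugt2b36 (4718) came next, followed by Sult2a8 (3205), Gstt1 (3107) and Sult1a1 (2965). The UGT1A genes were left out of this order because of their shared exons. Ugt2a3 stood at 1716 and Sult5a1 at 28.0 on the same scale. Exon length counted every annotated exon base of a gene, over all its transcripts, so this order depends on the annotation. It was 1473 bases for Gstm1, 4344 for Gsta3 and 5088 for Gstz1.

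Genes around the conjugation step were read from lists by role, and none of their members passed the limma adjusted threshold. For the supply of UDP-glucuronate 5 of 5 genes lay above 0 (median 0.10), beside 52.9% of all genes tested and a median of 0.07 for genes whose mean reached 1000 normalized counts. Without A, Slc35d1 and Slc35b1 turned to -0.049 and -0.012, and Slc35b1 was also below 0 without C, F or H. One gene was higher at an unadjusted p under 0.05, beside 5.22% of all genes. This was Ugdh, the enzyme that makes UDP-glucuronate, at 2891, 3586, 3602 and 3914 normalized counts in A to D and at 3748, 3789, 4590, 4630 and 4323 in E to I. G, H and I lay above all controls, the same 3 libraries as for the UGT sum, and the log2 fold change was 0.27 (SE 0.11, limma adjusted p 0.380). For Ugp2, which makes its precursor UDP-glucose, the log2 difference was 0.19 (limma adjusted p 0.549), or 0.076 without B.

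For the sulfate donor, 8 of 9 genes lay above 0 (median 0.11). Papss1, which makes PAPS, and Slc26a2, a sulfate transporter, had log2 fold changes of 0.33 and 0.60, with limma adjusted p-values of 0.372 and 0.427. Of 11 glutathione genes tested 6 lay above 0 (median 0.03). Oplah, which returns 5-oxoproline to glutamate, was the only one without overlap, beside 1.92% of all genes tested in this direction, at 1402 to 1579 normalized counts in sgRosa26 and 1691 to 1988 in sgCcnd1 (log2 fold change 0.31, limma adjusted p 0.255). Chac1, which degrades glutathione, had a log2 difference of 0.87 at a low level (limma adjusted p 0.366). The membrane-bound Mgst1 and Mgst3 had log2 fold changes of 0.10 and -0.13, which turned to -0.095 without A and to 0.0067 without B.

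Other conjugating and hydrolysing enzymes had a median of 0.05 over 14 genes, with the smallest p-values in Hnmt, which methylates histamine, and Glyat, which joins glycine to acyl groups. Their log2 fold changes were 0.37 and 0.17 (limma adjusted p 0.390 and 0.604), or 0.24 and 0.069 without library A. Among conjugate hydrolases, the sulfatase Arsa had a log2 fold change of 0.28, or 0.18 without I, with no overlap between groups (limma adjusted p 0.400), beside 1.92% of all genes tested. Arsb was at 0.09, or 0.021 without D. Of 13 transporters 11 lay above 0, beside 52.9% of all genes tested, and 3 were higher at an unadjusted p under 0.05, beside 5.22%. Their median of 0.07 was that of all genes whose mean reached 1000 normalized counts. They were Abcg2, an exporter of conjugates, the bile salt export pump Abcb11 and the uptake carrier Slco1b2, with log2 fold changes of 0.25, 0.41 and 0.25 and limma adjusted p-values of 0.291, 0.297 and 0.426. Abcg2 stood at 792 to 910 normalized counts in sgRosa26 and 960 to 1062 in sgCcnd1, also without overlap.

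Nfe2l2 had the smallest p of the 22 regulators tested. It stood at 2217, 2171, 2071 and 2297 normalized counts in A to D and at 1673, 1684, 1484, 1578 and 1615 in E to I. Every sgCcnd1 library lay below every control, and 1.97% of all genes tested were separated in this direction. The log2 fold change was -0.45 (SE 0.07), with a limma adjusted p of 0.135, an edgeR adjusted p of 0.123 and a DESeq2 adjusted p of 9.26e-07, or 0.000429 without H. Of these tests only DESeq2 called it lower. Of its targets outside the 3 families 13 of 19 tested lay above 0 (median 0.07), and those with the smallest p were Me1 and Tkt, enzymes of NADPH supply and the pentose phosphate pathway, at 0.73 and 0.21 (limma adjusted p 0.334 and 0.452). Me1 did not overlap between groups, as for 1.92% of all genes in this direction, at 2009 to 5059 normalized counts in sgRosa26 and 5473 to 7915 in sgCcnd1, and its log2 fold change was 0.42 without library A.

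The receptor genes Nr1i2 (PXR), Nr1i3 (CAR) and Ahr had log2 fold changes of 0.03, -0.27 and -0.26, with limma adjusted p-values of 0.948, 0.660 and 0.552. With 1 library left out, Nr1i2 turned to -0.048 (without A), Nr1i3 lay between -0.42 (without G) and -0.10 (without D), and Ahr between -0.37 (without G) and -0.14 (without A). Nr3c1, the glucocorticoid receptor, and Rxra, the partner of CAR and PXR, were at 0.21 and 0.23 (limma adjusted p 0.372 and 0.448). Of 13 CAR and PXR targets tested outside the families, 9 lay above 0 (median 0.10), led by the carboxylesterase Ces2a at 0.22 and the P450 reductase gene Por at 0.25 (limma adjusted p 0.436 and 0.526), or 0.14 without A and 0.12 without G. Of 5 AhR targets 3 lay above 0 (median 0.12), and Cyp1b1 and Nqo1 were at -0.42 and 0.21 (limma adjusted p 0.576 and 0.736), or -0.27 without B and 0.037 without C.

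Clock genes and markers of other cells were read beside the UGT values, and their part in them was not tested. None passed the limma adjusted threshold. Of 15 clock genes 5 were higher and 2 lower at an unadjusted limma p under 0.05, beside 5.22% and 5.74% of all genes tested. Dbp, a clock output factor known to drive detoxification genes, stood at 130, 99.0, 348 and 234 normalized counts in A to D and at 179, 541, 422, 409 and 488 in E to I. F to I lay above all controls and E below C and D (log2 fold change 1.08, limma adjusted p 0.334). For Nr1d2, next to the smallest p of the list, the log2 difference was 0.44 (limma adjusted p 0.282). Npas2, with the smallest, had -1.29, and was called lower by DESeq2 (limma adjusted p 0.225, DESeq2 adjusted p 0.00362).

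Of the 10 T and NK cell markers 7 were tested, all 7 below 0 with a median of -1.07, and 5 were lower at an unadjusted limma p under 0.05, beside 5.74% of all genes tested. The 10 summed to 97.1 to 280 normalized counts in sgRosa26 and 55.0 to 194 in sgCcnd1, where F to I lay below all controls and E inside their range. Kupffer and macrophage markers had 7 of 10 below 0, beside 47.1% of all genes tested. Lyz2 and Cd68 did not overlap between groups, as for 1.97% of all genes in this direction (log2 fold changes -0.44 and -0.71, limma adjusted p 0.225 and 0.245). DESeq2 called both lower, beside 0.549% of all genes. B and plasma cell markers had 8 of 8 tested below 0 (median -0.45), with no overlap between groups for 1 of them, Mzb1. Stellate and fibroblast markers had 9 of 10 below 0 (median -0.25), 3 of them at an unadjusted p under 0.05. Cholangiocyte markers had 5 of 7 below 0 (median -0.31), 2 of them at an unadjusted p under 0.05, and 1 did not overlap between groups and was called lower by DESeq2. Endothelial markers had 6 of 9 below 0 (median -0.04), none at that level. Hepatocyte markers had 4 of 9 above 0 with a median of 0.00. Of the 13 periportal genes 11 lay above 0 (median 0.16), led by Sds at 0.52 (limma adjusted p 0.253), which DESeq2 called higher with all libraries (adjusted p 0.0419) and not without H (0.170). Sox9 of the same list, which is also counted among the cholangiocyte markers above, was lower at an unadjusted limma p under 0.05. Its log2 fold change was -0.51 (limma adjusted p 0.346). Of the 13 pericentral genes 5 lay above 0 (median -0.06), with Lgr5 at -0.54 (limma adjusted p 0.358).

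**Figure D5:**
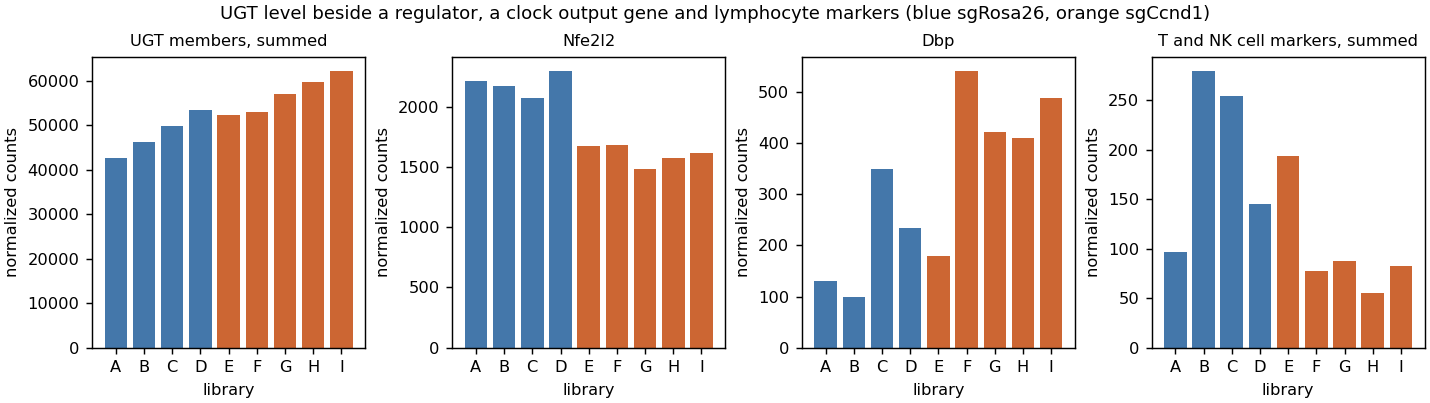
Per library, the UGT sum, Nfe2l2, Dbp and the summed T and NK cell markers, in normalized counts (blue sgRosa26, A to D; orange sgCcnd1, E to I). Nfe2l2 separates the groups, from 2071 to 2297 against 1484 to 1684, while in the other panels library E lies within the range of the controls.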

How the data were processed

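The deposited table holds, per its name, normalized counts, a never-negative signal for 27179 genes (1319 without a symbol). Division of a library's deposited values by the value of 1 read gave whole reads for 100% of genes in every library (tolerance 0.02), so each library had been scaled by a single factor. The submitters' processing notes name Trim Galore 0.6.7, HISAT2 2.2.1, featureCounts 2.0.3, FastQC 0.74, MultiQC and DESeq2 2.11.40.8, with the builds mm10 and GRCm38. Use of strand is not given in the sources used here. The number of columns from samples outside the series was 0.

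The 12993 genes whose mean over the libraries reached 10 were analysed as log2(normalized count + 1), a scale that understates changes of low genes. Groups were compared with limma 3.58.1 (lmFit, eBayes with trend, two-sided) in R 4.3.3, with Benjamini-Hochberg adjustment over all genes tested and a threshold of 0.05. Single values were compared by an exact permutation test over the libraries. edgeR 4.0.16 (quasi-likelihood, TMM) and DESeq2 1.42.0 (Wald test, 254 adjusted p-values undefined) were run on the recovered reads, also without library H, whose value of 1 read was near 1. The labels describe the samples as separate mice. The fits were tested on simulated data.

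Other alternatives were pseudocounts of 0.1 and 10, no minimum or a minimum mean of 100, quantile and 75th percentile scaling, robust eBayes, array weights and leaving out each library. Positions and promoter windows came from RefSeq tables (GRCm38.p6, 64 members matched), and exon lengths and shared 75-base windows from GENCODE vM21.

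The 3 families and the lists were chosen with earlier results of these data known, while the rule for members within the families uses symbols only. Named members were those with an unadjusted limma p under 0.05 or non-overlapping groups and the 2 with the highest mean per family. Of each related list up to 2 genes with the smallest p were named, with Nfe2l2, Nr1i2, Nr1i3 and Ahr. Other genes given with values, among them Ugt1a1, Ugt2b38, Gstm3, Gsta1, Gsta2, Gstp1, Sult2a7, Ugt2b1, Slco1b2 and Dbp, were chosen after their values were seen. A gene on the list of regulators is counted in that list but not reported by itself here.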

Additional observations from a re-analysis of the deposited data

Results flagged for a closer look

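In 86 groups of values (42 members tested and Ccnd1, each in 2 groups), 4 held a library far from the rest of its group. Chance would give about 4.3, at 1 in 20. In sgCcnd1, Gstp1 stood at 7423 normalized counts in library G and at 10124 to 11143 in the 4 others. In sgRosa26, Gstp3 stood at 261 in library C and at 368 to 389 in the others, Ugt2b34 at 7955 in library D and at 6294 to 6521 in the others, and Ugt2b35 at 3489 in library D and at 3209 to 3253 in the others.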

How the results depend on the processing

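No paired analysis was possible because no column of the table has a replicate number. The number of members called higher was 0 under all alternatives but DESeq2, which called 2 with all libraries and 1 without library H. Of all genes to which DESeq2 gave an adjusted p, it called 0.267% and 0.149% higher in these 2 settings. The number of members called lower was 0 under all alternatives. The median log2 fold change of the UGT genes, 0.34, lay between 0.22 (without A) and 0.41 with 1 library left out. The SULT median, -0.05, was above 0 with a pseudocount of 10, quantile normalization, edgeR and DESeq2, and lay between -0.10 and 0.11 and the GST median between -0.07 and 0.09. For Ccnd1 the fold change lay between -1.11 and -0.96 with 1 library left out, and the limma call was lost without B, D, F, H or I, as was the edgeR call without H (-1.02, adjusted p 0.0560). With 1 library left out, Gstm1 lay between -0.17 and 0.020 (above 0 without D or E) and Gsta3 between -0.16 and 0.042 (above 0 without B or D). Gsta1 turned to -0.051 without C. Ugt2a3, Ugt3a1, Ugt3a2, Ugt1a6a, Ugt1a6b, Ugt1a9, Ugt2b36, Ugt2b5, Sult2a8, Sult1a1 and Sult5a1 kept their direction in all 21 alternatives each. The number of UGT genes above 0 was 15 of 15 with pseudocounts of 0.1 or 10 and 75th percentile scaling, 14 of 15 with quantile normalization, 13 of 15 with edgeR or DESeq2 without library H, 13 of 13 with a minimum mean of 100, and 17 of 18 with no minimum. Depth limits the 22 genes under the minimum mean, of which 13 had reads.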
